A study of Mus musculus with 19 samples.

Results

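The genes described here are 10 components of the actomyosin cytoskeleton, followed through 19 single mouse embryos. They were chosen by name: the actins Actc1, Acta2, Actb and Actg1, the filament-binding protein Tagln2, the nonmuscle myosin II heavy chain Myh9, the essential light chain Myl6, and the regulatory light chains Myl9, Myl12a and Myl12b. All 10 are rows of a count table of 53379 gene rows, and 9 of them were abundant enough to be tested among 18410 genes. Acta2 was not tested, because no embryo held more than 19 counts of it. The set was assembled around the stage difference of Actc1 and Myl9 in the Alyref cross, so that difference is given as a description, without a test.

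Poly(A) RNA of single embryos was sequenced to set knockout (KO) embryos beside their siblings. The Alyref protein hands mRNA to the nuclear export machinery, and the Gabpb1 protein is part of GABP, an ETS-family transcription factor complex. Sperm and oocytes of B6D2F1 mice carrying 1 deleted copy of Alyref (Alyref+/-) or of Gabpb1 (Gabpb1+/-) were combined within each genotype by in vitro fertilisation, and the embryos were grown in KSOM medium until 96 hours post insemination. The Alyref cross is represented by 5 morulae, of which 2 are Alyref KO and 3 non-KO, and by 3 non-KO blastocysts. From the Gabpb1 cross there are 3 morulae labelled Gabpb1 KO, 2 that are non-KO and 3 non-KO blastocysts, and wild-type (WT) B6D2F1 parents gave 3 blastocysts. Embryos were labelled KO because their own libraries lacked reads over the deletion. Non-KO embryos are WT or heterozygous, and their genotype was not separated further. All embryos were collected at the same hour, so a morula here is an embryo that had not formed a blastocyst by then. Each of the 19 embryos is 1 library. Crosses were fertilised separately, and the day of fertilisation and the cross cannot be told apart.

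The sum of gene counts ran from 7.49 to 31.5 M (megacounts) over the embryos, with a median of 13.6 M. Values are given as CPM (counts per megacount of the library, scaled between libraries by the trimmed mean of M-values, TMM) or, where genes are compared with each other, as FPKM (CPM per kilobase of exon). Alyref CPM was 47.8 and 58.5 in the Alyref KO morulae and 162 to 291 in the other morulae of that cross. Gabpb1 CPM was 78.3, 259 and 151 in the morulae labelled Gabpb1 KO and 93.8 and 83.3 in their non-KO siblings. The first embryo labelled KO thus lay below both siblings and the others above them, and counts per gene cannot show the deleted part. The summed CPM of 8 trophectoderm markers was 4028 to 6686 in the 9 blastocysts and 376 to 4080 in the 10 morulae. Cumulus and granulosa markers summed to at most 0.61 CPM, and 5 sperm markers to at most 2.15 CPM.

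Actin filaments and myosin II form a contractile layer under the membrane. In the preimplantation embryo this layer drives compaction and helps to set which cells move inward. A myosin II hexamer carries a pair of heavy chains, a pair of essential light chains and a pair of regulatory light chains, and phosphorylation of the regulatory chain switches contraction on. Most cells use the cytoplasmic actins Actb and Actg1 and the light chains Myl12a and Myl12b. Actc1, alpha-cardiac actin, is the actin of heart muscle, Acta2 that of vascular smooth muscle, and Myl9 is the smooth-muscle form of the regulatory light chain. Serum response factor (SRF) with its MRTF coactivators controls many of these genes through the CArG box, a short A- and T-rich element between CC and GG.

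The promoters of Actc1 and Myl9 are shown because both members were low in every morula and higher in Alyref cross and WT blastocysts. Both windows also hold a CArG box with A or T alone between CC and GG, and only boxes of that exact form are in capitals. The sequences are from RefSeq (GRCm38.p6) and run 5′ to 3′ along the gene from 250 bases before to 50 bases after the start site, with the CArG box in capitals. The Actc1 window is chr2:114052826-114053125 on the minus strand, and the Myl9 window is chr2:156775214-156775513 on the plus strand.
Actc1 promoter: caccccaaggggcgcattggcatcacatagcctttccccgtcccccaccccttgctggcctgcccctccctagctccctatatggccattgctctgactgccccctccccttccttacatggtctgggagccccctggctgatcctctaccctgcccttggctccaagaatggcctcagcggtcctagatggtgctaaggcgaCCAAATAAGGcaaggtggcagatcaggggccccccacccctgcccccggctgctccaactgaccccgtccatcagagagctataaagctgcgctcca
Myl9 promoter: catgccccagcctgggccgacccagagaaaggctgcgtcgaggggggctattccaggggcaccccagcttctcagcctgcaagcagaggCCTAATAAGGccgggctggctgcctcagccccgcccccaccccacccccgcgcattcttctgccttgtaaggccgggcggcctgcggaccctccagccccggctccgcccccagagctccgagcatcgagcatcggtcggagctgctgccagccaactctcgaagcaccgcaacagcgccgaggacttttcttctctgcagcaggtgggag

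The box started at position -47 from the start site in Actc1 and at -161 in Myl9. Actg1 holds 1 at -90 (chr11:120348446-120348745, minus strand), with the letters CCATATATGG. A second RefSeq promoter of Myl6 (chr10:128492960-128493259, minus strand) holds CCTTATATGG at -50. A promoter was listed for 9 of the 10 members, and 4 of the 9 hold at least 1 exact CArG box on either strand. Near matches with another letter between CC and GG, such as CCCTATATGG in the Actc1 and Acta2 windows, were not counted. Of 32851 mouse promoter windows of the same length, 1.63% hold one. CCGGAAG, a core sequence that GABP and other ETS factors bind, was found on either strand in 1 member, Myl12b, and in 8.86% of all windows. A match of letters is a description and shows no binding.

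The regulatory light chains are near copies of each other, and that bears on how far their counts can be told apart. The first 60 coding bases of each, from the GENCODE M21 transcripts, encode the amino-terminal end with the residues that myosin light chain kinase phosphorylates. Capitals mark the 13 positions at which the 3 genes are not all alike.
Myl9 coding bases 1 to 60: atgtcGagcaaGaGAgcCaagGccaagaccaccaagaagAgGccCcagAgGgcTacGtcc
Myl12a coding bases 1 to 60: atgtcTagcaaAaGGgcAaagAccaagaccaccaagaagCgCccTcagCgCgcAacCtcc
Myl12b coding bases 1 to 60: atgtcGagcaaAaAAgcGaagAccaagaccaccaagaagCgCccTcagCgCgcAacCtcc

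Over the whole coding sequence of 519 bases, Myl12a and Myl12b were 96.5% identical, with an unbroken shared run of 105 bases. Myl9 was 85.6% identical to Myl12a and 86.3% to Myl12b, with shared runs of at most 35 bases. The longer sequencing read had 50 bases. Myl12b (chr17:70973920-70990787) and Myl12a (chr17:70993656-71002878) are also neighbours on the minus strand of mm10. Of all 50-base windows in the transcripts, 16.2% of Myl12a were also found in Myl12b, and 17.6% of Myl12b in Myl12a. Actg1 shared 33.2% of its windows with the processed pseudogene Gm12715, which held 3859 to 43794 counts per embryo, and Actb shared 9.12% with other genes. Actc1 shared none of 1568 windows and Myl9 none of 1251. How the authors treated reads that fit several places is not given in the sources used here, so levels of Actg1, Myl12a and Myl12b are uncertain by the reads they may share, and those of Actc1 and Myl9 are not touched by this.

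Actc1 (chr2:114047282-114053548, minus strand, mm10) separated the blastocysts of the Alyref cross and of WT parents from all other embryos. It had 0 counts in each of the 5 morulae of the Alyref cross, 1, 0 and 0 counts in the morulae labelled Gabpb1 KO, and 0 and 2 counts in the Gabpb1 cross non-KO morulae. At these depths 0 counts allow up to 3 counts, and floors of this kind cover counting error alone. The 3 blastocysts of the Alyref cross held 2426, 236 and 180 counts, which is 78.2, 14.6 and 17.1 CPM. The WT blastocysts held 317, 896 and 1365 counts, or 21.2, 57.4 and 91.8 CPM. The 3 blastocysts of the Gabpb1 cross held 3, 6 and 0 counts, or 0.25, 0.71 and 0 CPM. Gabpb1 cross blastocysts thus overlapped the morulae in their Actc1 level and overlapped neither of the other blastocyst groups.

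Mean Actc1 was 36.6 ± 36.0 CPM (SD, n = 3) in Alyref cross blastocysts, 56.8 ± 35.3 CPM (SD, n = 3) in WT blastocysts and 0.319 ± 0.361 CPM (SD, n = 3) in Gabpb1 cross blastocysts. The first Alyref cross blastocyst carries most of its group's mean, which was 15.9 CPM without it. The WT mean was 178-fold the Gabpb1 cross mean, 123-fold without the highest WT embryo, and the lowest WT embryo was 29.9-fold above the highest Gabpb1 cross embryo. Between the Gabpb1 cross and WT blastocysts the log2 difference was -7.62 (SE 1.11) and the adjusted p was 0.239 by edgeR's quasi-likelihood (QL) test with Benjamini-Hochberg (BH) adjustment over 18410 genes. It was therefore not called in that test. Over 15 alternative settings the log2 difference ran from -8.81 to -4.73 and the adjusted p from 0.000229 to 0.742, and Actc1 was called in 4 of them, namely with DESeq2, with limma at either pseudocount and without a filter on low values. The trophectoderm markers summed to 4229 to 5071 CPM in the Gabpb1 cross blastocysts and to 4028 to 5593 CPM in the WT blastocysts. Those ranges overlapped, and most of each sum came from Krt8 and Krt18 (means of 1532 and 2707 CPM in the Gabpb1 cross). Of the other trophectoderm markers, Elf5 (9.03 against 36.9 CPM in WT), Gata3 and Eomes had lower means in the Gabpb1 cross. Tfap2c (73.1 against 37.3 CPM in WT), Tead4 and Cdx2 had higher means there. Inner cell mass and epiblast markers summed to 275 to 348 CPM in the Gabpb1 cross and to 201 to 237 CPM in WT blastocysts, without overlap. The part of these cell types in the Actc1 difference was not tested.

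Myl9 (chr2:156775420-156781658, plus strand, mm10) was low in every morula and higher, by CPM, in every blastocyst. In the Alyref cross it was 0.79 and 0.27 CPM in KO morulae and 1.14, 0 and 0.45 CPM in non-KO morulae. Morulae labelled Gabpb1 KO had 0.52, 0.093 and 0.14 CPM, and Gabpb1 cross non-KO morulae had 0.28 and 0.38 CPM. The highest morula and the lowest blastocyst were 1.14 and 2.13 CPM, so the stages did not overlap in CPM. These embryos held 21 and 18 counts, so their order rests on the scaling to library size.

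In blastocysts Myl9 was 58.6, 35.6 and 66.1 CPM in the Alyref cross, 21.2, 2.13 and 4.81 CPM in the Gabpb1 cross and 29.9, 12.1 and 53.0 CPM in WT. The Gabpb1 cross was lowest on average, at 9.37 ± 10.3 CPM (SD, n = 3) against 31.7 ± 20.5 CPM (SD, n = 3) in WT, and its range overlapped the WT range. The log2 difference of -1.75 (SE 0.80) between them had an adjusted p of 0.814 by edgeR's QL test with BH. Within the Gabpb1 cross, blastocysts exceeded morulae by 4.79 (SE 1.203) on the log2 scale, with an adjusted p of 0.423. That stage difference was called by DESeq2 (4.81, adjusted p 0.00218) and by no other setting out of 14, across which it ran from 2.36 to 5.26.

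**Figure D1:**
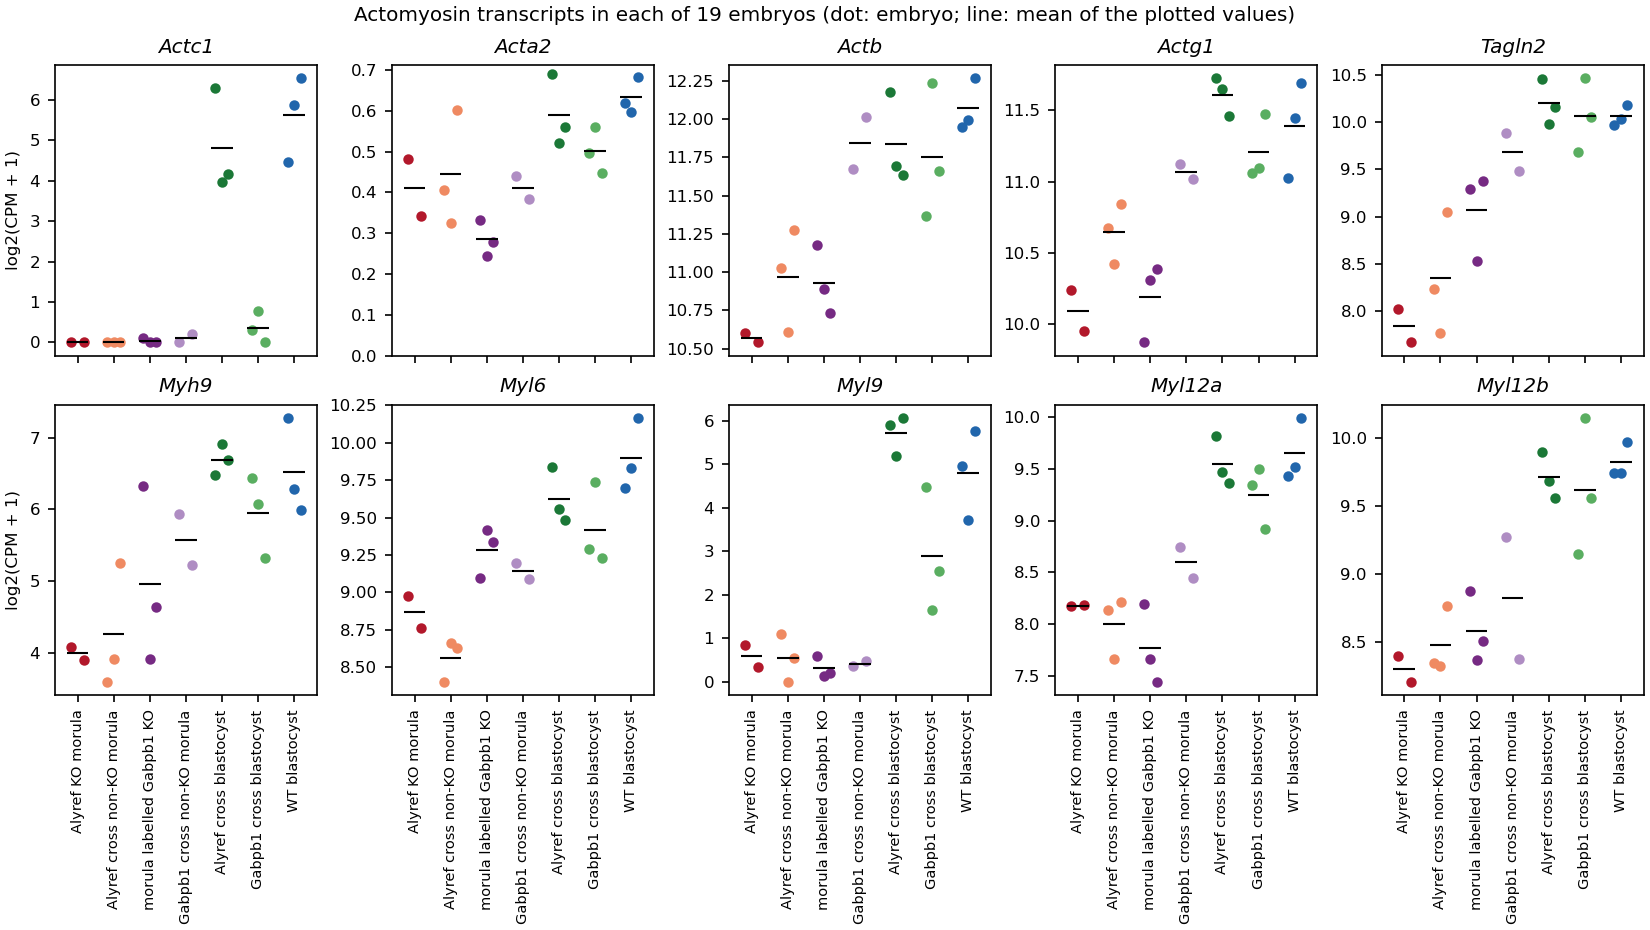
Level of each of the 10 genes, as log2(CPM + 1), in each of 19 embryos by group. Dots are embryos, lines are group means of the plotted values, and each panel has its own vertical scale. Actc1 sits at or near 0 in all morulae and in the Gabpb1 cross blastocysts, between 14.6 and 78.2 CPM in Alyref cross blastocysts and between 21.2 and 91.8 CPM in WT blastocysts.

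Actc1 and Myl9 remained minor forms of their families even where they were highest. Of the summed FPKM of the 4 actins, Actc1 gave 0.807 ± 0.675% (SD, n = 3) in Alyref cross blastocysts, 1.25 ± 0.622% (SD, n = 3) in WT blastocysts and 0.00843 ± 0.00838% (SD, n = 3) in Gabpb1 cross blastocysts. Its largest share in a single embryo was 1.81%, in a WT blastocyst. Actb gave group means of 53.3 to 62.9% and Actg1 nearly all the rest, at 37.1 to 45.9%. Acta2 stayed at or below 0.0215% in every embryo, from 2 to 19 counts.

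Of the summed FPKM of the 3 regulatory light chains, Myl9 gave 5.98 ± 1.97% (SD, n = 3) in Alyref cross blastocysts, 1.40 ± 1.66% (SD, n = 3) in Gabpb1 cross blastocysts and 3.22 ± 1.71% (SD, n = 3) in WT blastocysts. The Gabpb1 cross value was 0.451% without the first blastocyst of that group. In the 4 morula groups its mean share lay between 0.0661 and 0.162%. Myl12b gave 63.7 to 76.6% and Myl12a 23.3 to 32.8% as group means, with the reservation on shared sequence given above.

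**Figure D2:**
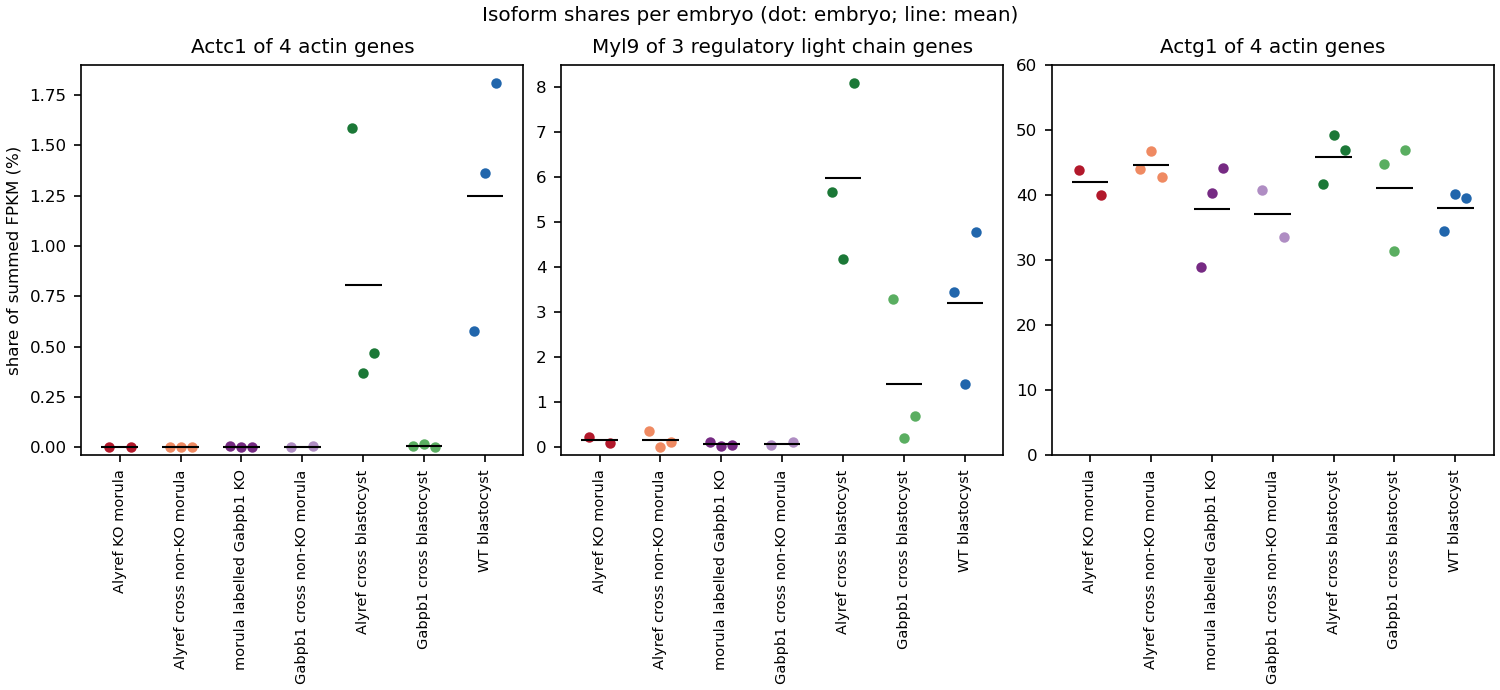
Share of Actc1 and Actg1 in the summed FPKM of 4 actin genes, and of Myl9 in that of 3 regulatory light chain genes, in percent per embryo. Dots are embryos and lines are group means. The Actc1 share reaches 1.81% and the Myl9 share 8.09% in single blastocysts, whereas Actg1 holds 29.0 to 49.2% in every embryo.

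Together the 10 genes made up 0.393 ± 0.0394% (SD, n = 2) of gene counts in Alyref KO morulae, 0.484 ± 0.131% (SD, n = 3) in their non-KO siblings and 0.494 ± 0.0465% (SD, n = 3) in morulae labelled Gabpb1 KO. The mean of the Gabpb1 cross non-KO morulae lay between these and the blastocyst means, at 0.836 ± 0.00702% (SD, n = 2). Blastocysts had 1.08 ± 0.124% (SD, n = 3) in the Alyref cross, 0.934 ± 0.156% (SD, n = 3) in the Gabpb1 cross and 1.11 ± 0.117% (SD, n = 3) in WT. In whole embryos, fewer cells of a type and less RNA per cell cannot be told apart.

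The members were higher in Alyref cross blastocysts than in morulae of that cross, which is the comparison they were chosen from. The 9 tested members did not overlap between the stages, against 19.6% of 18410 genes that were higher without overlap, and nothing is read from that count. For Actc1, with a floor of 3 counts per morula library, the blastocyst mean was at least 180.2-fold higher, and at least 78.0-fold without the highest blastocyst. The fitted log2 differences of the others were 6.54 for Myl9, 2.32 for Myh9, 1.77 for Tagln2, 1.54 for Myl12a and 1.23 for Myl12b. Myl6 had 1.07, Actg1 0.96 and Actb 0.86. The members' median was 1.54, beside -0.04 over all tested genes.

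In the Gabpb1 cross, which shares no embryo with that comparison, the fitted stage difference was smaller for each tested member, and whether the crosses differ was not tested. None of the 9 tested members was called by edgeR's QL test with BH, and no gene of 18410 was (0%). At an unadjusted p under 0.05 there were 3 members (Myl9, Myl12a and Myl12b, all higher in blastocysts), against 6.72% of all genes. DESeq2 called 1 member, against 0.385% of the genes to which it gave an adjusted p, and limma called 0, against 0.0543% of all genes. The ranges did not overlap for 3 members, Myl9, Myl6 and Myl12a, all higher in blastocysts, against 11.4% of all genes. The members were chosen with results of these data known, and Myl9 and Actc1 reached the level needed for testing in blastocysts alone. These counts are therefore not independent of the choice, and nothing is read from them. The members' median log2 difference was 0.40, beside 0.02 over all genes.

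Myl12a was 428 and 348 CPM in the Gabpb1 cross non-KO morulae and 650, 720 and 482 CPM in the blastocysts, a log2 difference of 0.67 (SE 0.27) with an adjusted p of 0.663 by edgeR's QL test with BH. Myl12b was 617 and 332 CPM in these morulae and 567, 1137 and 754 CPM in the blastocysts, with a difference of 0.79 (SE 0.30) and an adjusted p of 0.626. The lower blastocyst lay inside the morula range for Myl12b and outside it for Myl12a. The other differences were 0.40 (SE 0.64) for Myh9, 0.40 (SE 0.34) for Tagln2, 0.30 (SE 0.20) for Myl6, 0.15 (SE 0.22) for Actg1 and -0.05 (SE 0.26) for Actb. When libraries were scaled to the ERCC spike-in RNA, the median of all genes moved to -0.86 in this comparison, and Actg1, Tagln2, Myh9, Myl6, Myl12a and Myl12b were then below 0 but above that median, while Actb, at -0.98, was below it. Trophectoderm markers summed to 2556 and 4080 CPM in the 2 non-KO morulae of the Gabpb1 cross and to 656 to 1926 CPM in the 3 of the Alyref cross. Their part in the stage differences was not tested.

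Leaving out Actc1, Acta2 and Myl9, which had few counts in morulae, the cytoplasmic actins had the lowest fitted differences in the morulae labelled Gabpb1 KO. Actb (chr5:142903115-142906754) was 2311, 1893 and 1701 CPM in them and 3269 and 4137 CPM in the non-KO morulae of the cross. Actg1 (chr11:120345690-120348542) was 936, 1266 and 1338 CPM against 2231 and 2069 CPM. For both genes every embryo labelled KO lay below every non-KO morula.

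The log2 difference was -0.91 (SE 0.26; adjusted p = 0.0787 by edgeR's QL test with BH) for Actb and -0.87 (SE 0.22; adjusted p = 0.0518) for Actg1. Neither was called. Over 14 alternatives Actb ran from -1.29 to -0.73, with adjusted p from 0.0159 to 0.505, and was called in 2 of them. Actg1 ran from -1.43 to -0.72, with adjusted p from 0.00757 to 0.331, and was called in 5. Among them DESeq2 called both.

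Estimates for the rest of the members with more counts were nearer to 0. Myl12a was 293, 202 and 173 CPM in the morulae labelled Gabpb1 KO against 428 and 348 CPM, with no overlap and a log2 difference of -0.80 (SE 0.26; adjusted p = 0.117 by edgeR's QL test with BH). Tagln2, a transgelin that binds actin filaments, was 624, 368 and 665 CPM against 948 and 712 CPM, a difference of -0.59 (SE 0.33, adjusted p = 0.36). Myh9, the motor chain, was 79.4, 14.0 and 23.8 CPM against 60.04 and 36.4 CPM, and the first embryo labelled KO was higher than both non-KO morulae. Its difference of -0.30 (SE 0.63) turned to 0.07 without the second embryo labelled KO and to 0.10 without the first non-KO morula. Myl12b differed by -0.29 (SE 0.29), which turned to 0.22 without the first non-KO morula, and Myl6 by 0.15 (SE 0.20), which was -0.39 when libraries were scaled to the spike-ins, a scaling that moved the median of all genes from 0.06 to -0.405.

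In this comparison edgeR's QL test with BH called 0 of the 9 tested members, against 1.65% of 18410 genes. At an unadjusted p under 0.05 there were 3 members, all lower in the embryos labelled KO, against 18.9% of all genes. DESeq2 called these 3, Actb, Actg1 and Myl12a, against 8.1% of the genes to which it gave an adjusted p, and limma called 1, Actg1, against 2.89% of all genes. Of the tested members 4 were lower without overlap, against 16.4% of all genes. The members' median was -0.59, beside 0.06 over all genes. Trophectoderm markers summed to 376 to 2557 CPM in the morulae labelled Gabpb1 KO and to 2556 to 4080 CPM in the non-KO morulae, and 6 inner cell mass and epiblast markers to 360 to 434 CPM and 190 to 289 CPM. Their part in the actin difference was not tested.

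In the Alyref cross the actins were also lower in KO than in non-KO morulae, with smaller estimates. The 3 non-KO morulae also serve in the stage comparison that the members were chosen from, so these values are not independent of that choice. Actg1 was 1205 and 987 CPM in KO morulae and 1634, 1368 and 1838 CPM in non-KO morulae, with no overlap and a log2 difference of -0.56 (SE 0.22; adjusted p = 0.31 by edgeR's QL test with BH). Actb was 1553 and 1489 CPM against 2088, 1564 and 2473 CPM, also without overlap, at -0.42 (SE 0.26, adjusted p = 0.563). Myl6 lay the other way, at 503 and 433 CPM in KO morulae against 338, 403 and 395 CPM, a difference of 0.31 (SE 0.20, adjusted p = 0.582). Tagln2 differed by -0.60 (SE 0.34), Myh9 by -0.47 (SE 0.65), Myl12b by -0.19 (SE 0.29) and Myl12a by 0.16 (SE 0.26). The Myh9 difference turned to 0.25 without the third non-KO morula.

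Of the 9 tested members, edgeR's QL test with BH, DESeq2 and limma each called 0 between Alyref KO and non-KO morulae, against 0.228% of all genes with edgeR, 3.31% with DESeq2 and 0.891% with limma. At an unadjusted p under 0.05 there was 1 member, Actg1, against 12.1% of all genes. One member was higher without overlap and 2 were lower, against 12.5% and 12.3% of all genes. The test of the difference between the 2 KO effects called 0 members with each of these tools, against 0.907% of all genes with edgeR, 5.77% with DESeq2 and 1.47% with limma. The effects differed by -0.96 (SE 0.37; adjusted p = 0.206) for Myl12a, the 1 member under an unadjusted 0.05 against 16.8% of all genes, by -0.49 (SE 0.36) for Actb and by -0.31 (SE 0.31) for Actg1.

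**Figure D3:**
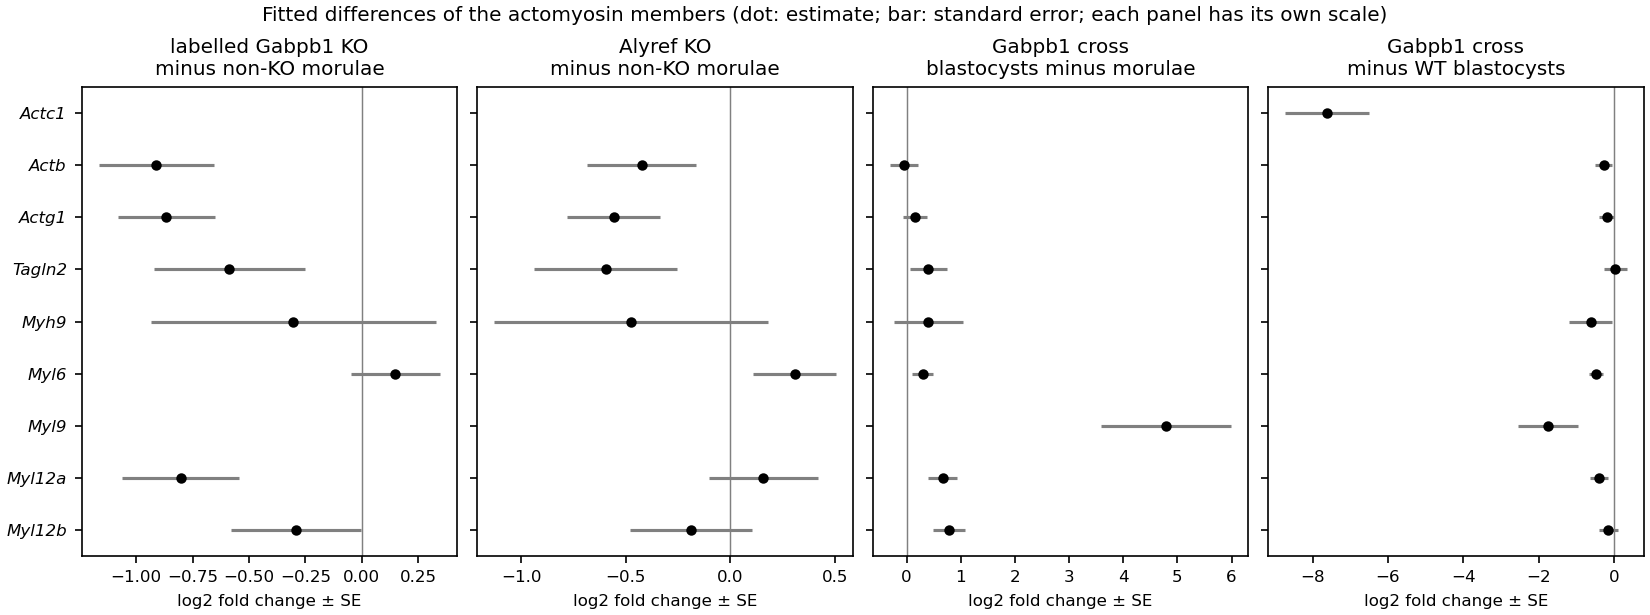
Fitted log2 fold changes with standard errors for the tested members in 4 comparisons. Each panel has its own horizontal scale, and values that rest on a few counts (Actc1 and Myl9 between morulae, Actc1 between the stages of the Gabpb1 cross) are left out. Actb and Actg1 lie near -0.9 in the first panel, and Actc1 lies at -7.62 in the last.

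Between Gabpb1 cross and WT blastocysts Actc1, described above, stood apart from the rest of the members. By edgeR's QL test with BH 0 of 9 were called, as was no gene at all (0%). DESeq2 and limma called 1 member, Actc1, against 0.238% and 0.0217% of all genes. Actc1 reached the level needed for testing in Alyref cross and WT blastocysts alone, so these calls are not independent of that filter. At an unadjusted p under 0.05 there were 3 (Actc1, Myl9 and Myl6, all lower in the Gabpb1 cross), against 6.1% of all genes, and 1 member was lower without overlap, against 6.33%. Myl6, the essential light chain, was 625, 851 and 601 CPM in the Gabpb1 cross and 831, 911 and 1148 CPM in WT, with overlapping ranges and a log2 difference of -0.48 (SE 0.18, adjusted p = 0.793). The other 6 tested members differed by -0.62 to 0.04.

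The order of the groups was alike for several members. Alyref KO morulae had the lowest mean of Actb, Actg1, Tagln2, Myh9 and Myl12b, and the morulae labelled Gabpb1 KO the lowest of Acta2, Myl9 and Myl12a. For Acta2 and Myl9 that place rests on 2 to 3 and on 1 to 6 counts per embryo, too few to rank morula groups. Group means of Actb ran from 1521 ± 45.0 CPM (SD, n = 2) in Alyref KO morulae to 4320 ± 529 CPM (SD, n = 3) in WT blastocysts. From the Gabpb1 cross non-KO morulae upward, neighbours in the order overlapped in range for Actb and Actg1. For Myl9 the 4 morula groups overlapped one another, as did the 3 blastocyst groups from one neighbour to the next. Myh9 spanned 14.96 ± 1.44 CPM (SD, n = 2) in Alyref KO morulae to 103 ± 16.0 CPM (SD, n = 3) in Alyref cross blastocysts, and every pair of neighbouring groups overlapped.

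Other genes of the same machinery were taken from 4 lists that hold no member. Of myosin II and its regulators 13 of 17 were tested, of filament assembly and turnover 27 of 28, of filament binding, cross-linking and cortex anchoring 22 of 25, and of SRF and MRTF with classical targets 9 of 15. By edgeR's QL test with BH none of these 71 genes was called between the morulae labelled Gabpb1 KO and non-KO, where 17 had an unadjusted p under 0.05 (18.9% of all genes did). DESeq2 called 7 there (8.1% of all genes) and limma called 2 (2.89%). Between Alyref KO and non-KO morulae the count was 0 as well, with 9 at an unadjusted p under 0.05 (12.1% of all genes), 2 by DESeq2 (3.31%) and 1 by limma (0.891%). Between the stages of the Gabpb1 cross it was 0, with 9 at an unadjusted p under 0.05 (6.72% of all genes), 2 by DESeq2 (0.385%) and 1 by limma (0.0543%). In the Alyref cross stage comparison, from which the members were chosen, edgeR's QL test with BH called 25 of the 71 higher in blastocysts and 0 lower, against 5.62% and 7.43% of all genes. That count was 2 with spike-in scaling, 1 when the compared groups were fitted alone and 8 to 33 when each embryo was left out (3 were called lower without the third morula), and nothing is read from it.

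In the morulae labelled Gabpb1 KO, 22 of the 27 filament assembly genes had log2 differences below 0, with a median of -0.52, and 17 of the 22 filament-binding genes did, with a median of -0.61, beside 0.06 over all genes. In Alyref KO morulae 14 of the 27 and 16 of the 22 were below 0, with medians of -0.03 and -0.21, beside -0.04 over all genes. Of the 13 myosin II genes 7 were below 0 in each KO comparison, with medians of -0.05 (Gabpb1) and -0.24 (Alyref). Of the 9 SRF and MRTF genes 6 were below 0 in each, with medians of -0.40 and -0.41. The share of all genes below 0 was not counted. The genes of highest FPKM in each list are given as its examples.

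Pfn1, which delivers actin monomers to growing filaments, was 596 ± 82.3 CPM (SD, n = 3) in morulae labelled Gabpb1 KO, 738 ± 174 CPM (SD, n = 2) in their non-KO siblings and 1239 ± 115 CPM (SD, n = 3) in the blastocysts of the cross. Arpc2, a subunit of the Arp2/3 complex that nucleates branched filaments, was 440 ± 85.6, 669 ± 120 and 1012 ± 38.3 CPM in the same order. The calponin Cnn3 was 392 ± 75.0, 741 ± 90.4 and 984 ± 149 CPM, and the tropomyosin Tpm4, which coats filaments, 268 ± 93.8, 524 ± 148 and 749 ± 85.3 CPM. In the Gabpb1 cross morulae these filament genes thus had the order of Actb and Actg1. None of the 4 differences from the non-KO morulae of that cross was called by edgeR's QL test with BH (adjusted p from 0.0745 to 0.6). Rhoa, the GTPase upstream of myosin activation, lay the other way at 581 ± 281, 339 ± 0.884 and 372 ± 57.0 CPM, and Racgap1, a regulator of cytokinesis, was 229 ± 52.5, 179 ± 103 and 278 ± 57.7 CPM. Of the SRF targets Fhl2 was 61.7 ± 63.1, 58.0 ± 22.0 and 46.7 ± 15.4 CPM, and Cyr61 11.7 ± 6.17, 47.0 ± 35.1 and 35.7 ± 13.2 CPM.

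**Figure D4:**
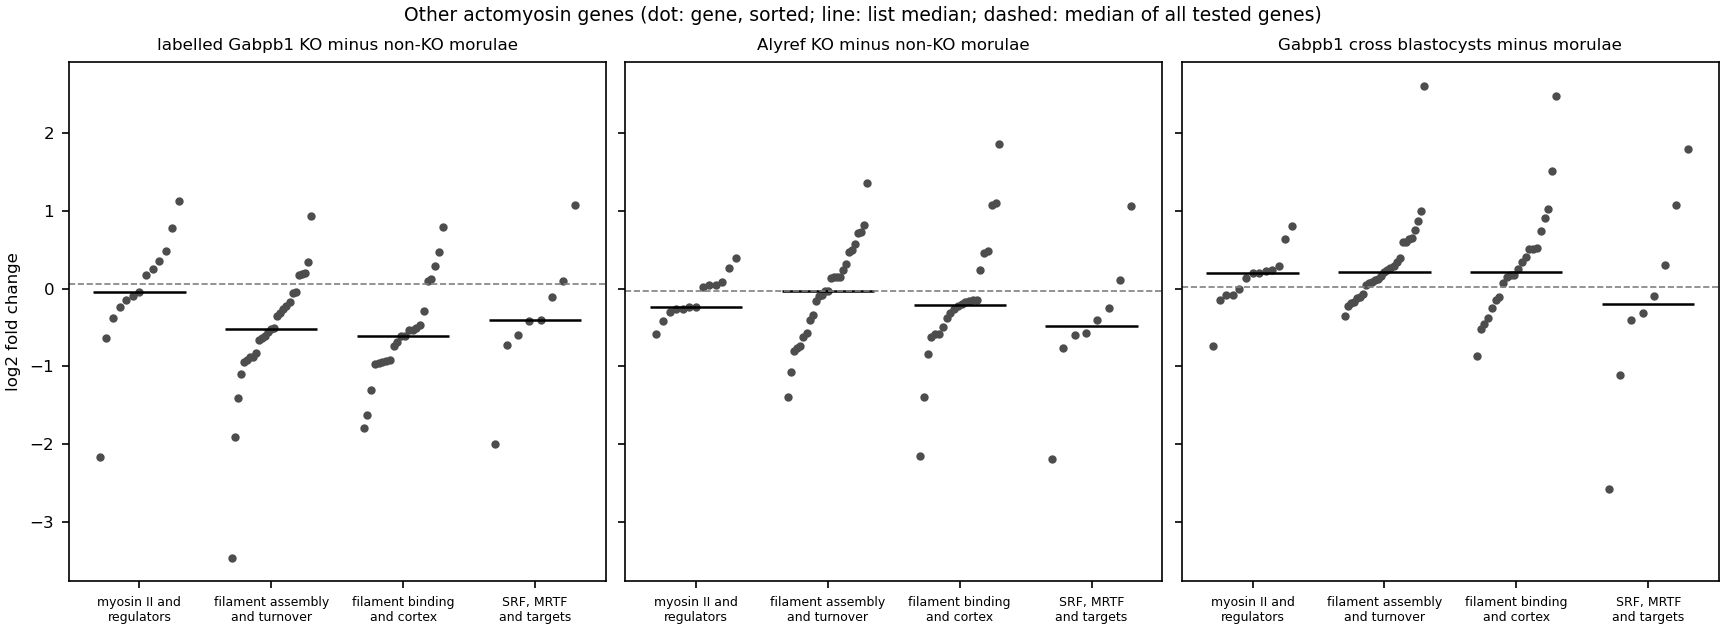
Log2 fold changes of the tested genes of 4 actomyosin lists in 3 comparisons. Dots are genes sorted by value, lines are list medians and the dashed line is the median of all tested genes. Actg2, with at most 1 count in any morula, is left out. The lists of filament assembly and filament binding lie mostly below 0 in the first panel, with 22 of 27 and 17 of 22 genes there. In the second panel 14 of 27 and 16 of 22 lie below 0.

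Muscle markers, as a list, were not higher where Actc1 was. The summed CPM of 17 genes of cardiac, skeletal and smooth muscle was 147 to 198 in the 9 blastocysts and 172 to 454 in the 10 morulae, and most of it came from Mylpf (at most 297 CPM in an embryo) and Actn2 (at most 217 CPM). Some heart muscle genes of the list stayed low: Myh6 reached 1.01 CPM, Myh7 1.03 CPM, Myl2 2.50 CPM, Tnni3 1.28 CPM and Nkx2-5 0.67 CPM in the highest embryo. Other genes of the list reached more, among them Ttn with 38.23 CPM, Myl4 with 6.901 CPM and Des with 6.617 CPM. Myh6 averaged 0.0424, 0 and 0.0447 CPM in the blastocysts of the Alyref cross, the Gabpb1 cross and WT. Tnnt2, cardiac troponin T, reached 4.09 CPM and averaged 1.95, 2.68 and 0.57 CPM in those groups, an order that differed from that of Actc1. Des averaged 2.607, 1.994 and 3.157 CPM there, and both Des and Myh6 had the blastocyst order of Actc1. In Gabpb1 cross non-KO morulae, where Actc1 was low, Des averaged 4.447 CPM.

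The genes whose levels followed Actc1 most closely were ranked by Pearson's r of log2(CPM + 1) over the 19 embryos among 11424 genes with a mean of 5 CPM or more. They were BC051665 (r = 0.87), Myl9 (0.86), Ndufs3 (0.85), Gm12251 (0.85) and Flna (0.83), the gene of filamin A, an actin cross-linker. Flna averaged 51.9 CPM in Alyref cross blastocysts, 9.75 CPM in Gabpb1 cross blastocysts and 39.4 CPM in WT blastocysts. The genes closest to Myl9 were Pdcl3 (0.90), Tstd3 (0.89), Hddc2 (0.88), the calponin Cnn2 (0.88) and Myl12a (0.88). Cnn2 averaged 297, 218 and 310 CPM in the same blastocyst groups and 7.89 to 39.1 CPM in the morula groups. The 19 points share the groups and the stage, so these values describe the embryos and carry no p-value.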

How the data were processed

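Poly(A) RNA of 19 single embryos was measured with ERCC spike-ins, 16 cycles of PCR and Nextera XT libraries read as 50 + 25 bases, per the labels' protocols. The authors deposited 1 table of raw counts per gene, although its name announces FPKM: the deposited values are whole numbers whose totals differ between embryos. Trim Galore, cutadapt, Trimmomatic, STAR and featureCounts and the build mm10 are named in the submitters' processing notes, without versions. Strand setting and treatment of reads with several matches are not given in the sources used here. The 92 ERCC rows stayed out of library sizes.

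FPKM was computed from counts and deposited exon length, on library totals for the filter and limma and on TMM-scaled totals for reported levels and shares. Genes with FPKM of 1 or more in at least 2 embryos (18410 of 39262 with any count) were fitted in edgeR 4.0.16 (R 4.3.3) with TMM scaling and 1 mean per group over all 19 embryos. Contrasts were tested with the QL F test, BH adjustment over all genes tested and a threshold of 0.05. The SE of a log2 fold change was derived from its F statistic. limma 3.58.1 on log2(FPKM + 1) or log2(FPKM + 0.1) and DESeq2 1.42.0 were among the alternatives, and shares of all genes called by DESeq2 are of those to which it gave an adjusted p. On simulated counts of 18410 genes for the comparison of morulae labelled Gabpb1 KO with non-KO, edgeR recovered 5.97% of changes of 1 on the log2 scale, 68.7% of 2 and 95.5% of 3, with 2 wrong calls. There 67, 67 and 66 genes carried these changes, the rest did not change, and the spread followed the trend over genes. The recovered shares therefore need not hold for the members.

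The members, gene lists and tests were chosen with earlier results of these data known. All members were named. Of each list the 2 genes of highest mean FPKM were named, since edgeR called none in the Gabpb1 cross. Other list genes (Cnn2, Flna, Actg2) were named after their values were seen or by their likeness to Actc1 or Myl9. Nothing says whether embryos of a group shared parents, so p-values measure the spread between these embryos. Promoters came from RefSeq (GRCm38.p6), transcripts from GENCODE M21.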

Additional observations from a re-analysis of the deposited data

How the results depend on the processing

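The number of members called depended on the tool in the comparisons with few calls. Between morulae labelled Gabpb1 KO and non-KO, edgeR called 0, DESeq2 called 3, and limma at either pseudocount, an FPKM minimum of 5 and the replicate block each called 1. Leaving out each embryo gave 0 to 2, with Actb and Myl12a called without the first embryo labelled KO (-1.04 with adjusted p 0.0467, and -1.05 with adjusted p 0.0353). Between the stages of the Gabpb1 cross DESeq2 called 1. Between Gabpb1 cross and WT blastocysts DESeq2, limma at either pseudocount and no filter each called 1. The cause was not tested in any of these. Where leaving out an embryo left 1 in a group, it was assumed to vary like the others.

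Over 52 same-number pairs of embryos the correlation of deviations from group means ran from -0.202 to 0.263 (median 0.00109), and 10 were over 0.1. Pairs with unlike numbers were not compared, so a pairing by replicate number is neither shown nor excluded. With the replicate block, Actg1 was called at -0.95 (adjusted p 0.0411) in the Gabpb1 KO comparison, and no other call of a member changed in the tested comparisons.

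Scaling to the spike-ins moved the median of all genes from 0.06 to -0.405 in the Gabpb1 KO comparison, where Myl6 turned to -0.39, and turned, between the stages of the Gabpb1 cross, Actg1 (-0.78), Tagln2 (-0.53), Myh9 (-0.39), Myl6 (-0.60), Myl12a (-0.19) and Myl12b (-0.16), whose median over all genes it moved from 0.02 to -0.86. Leaving out single embryos turned Myh9 in the Gabpb1 KO comparison (-1.35 to 0.10, with 0.07 also above 0), Myl12b there (-0.67 to 0.22), Myh9 in the Alyref KO comparison (-0.80 to 0.25) and Actb between the stages of the Gabpb1 cross (-0.34 to 0.13, with 0.12 and 0.01 within it). The members' median in the Alyref stage comparison stayed between 1.14 and 1.65 in 15 settings. The Myl9 share in Alyref cross blastocysts was 3.27% by counts not divided by length, and 0.737% in the Gabpb1 cross and 1.73% in WT. In the simulation, changes of 1 on the log2 scale were mostly not recovered at these group sizes.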
